A study of Mus musculus with 12 samples.

Results

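The genes examined here encode receptors of the epidermal growth factor (EGF) family, the ligands that engage them and the ADAM sheddases that release those ligands. They are Egfr, Erbb2, Erbb3, Adam10, Adam17, Areg, Ereg, Hbegf, Tgfa and Nrg1, 10 of the 34745 genes in the table, and each was found by its symbol. They were chosen by name when the measured differences between these groups were already known, in all the comparisons below, and Adam17 was set against Adam10. Differences of the 10 genes between groups are therefore given as sizes with standard errors (SE) and as a description, and nothing is supported with their calls. A gene is called here at an adjusted p under 0.05 in edgeR's quasi-likelihood test over all genes tested.

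EGF family ligands are made as membrane-anchored precursors, and a protease at the cell surface cuts them free. ADAM17 is the main sheddase of amphiregulin, epiregulin, heparin-binding EGF-like growth factor and TGF-alpha, while ADAM10 cuts EGF and betacellulin as well as adhesion proteins such as E-cadherin. Released ligands of the EGFR group bind EGFR, neuregulins bind ERBB3 or ERBB4, and ERBB2 has no known ligand of its own and serves as the partner of the others. In alveolar epithelium the signal runs through RAS, ERK and PI3K and is known for its part in spreading, proliferation and repair after injury.

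RNA was sequenced in 12 libraries of MLE-12, an established mouse lung epithelial line regarded as a model of alveolar type II (AT II) cells, so every group was the same line. The LPS group received 100 ng/mL lipopolysaccharide in 21% O2, and the Hyp group was kept in 85% O2. LPS + M2-Exo and Hyp + M2-Exo received in addition 10 µg/mL of exosomes from IL-4-treated MH-S cells, a mouse alveolar macrophage line, and the time given for all groups was 24 h. Each group held 3 libraries, no untreated library was analysed, and the labels do not say whether replicates were separate cultures. The errors thus rest on spread between libraries, which need not be that between cultures.

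Total counts ran from 16021833 to 24074616 per library, and single libraries stood apart from their replicates in Adam10, Adam17 and Tgfa, as given with each gene. Nkx2-1 and Sftpc, which mark the distal lung epithelium and AT II cells, were present at 11.2 to 56.2 and 13.5 to 28.2 FPKM, a count scaled by gene length and library size. Abca3, a further AT II marker, was present at 12.7 to 17.8 FPKM, whereas Sftpa1, Sftpd, Lamp3 and Slc34a2 were under 1 FPKM in every library. The epithelial markers Epcam, Krt18 and Cldn4 were also under 1 FPKM in every library, although the keratin Krt8 reached 74.2 to 86.5 FPKM. The 10 AT II markers summed to 102 to 108 FPKM in the libraries with LPS and to 48.2 to 53.7 FPKM in the libraries in hyperoxia. Nkx2-1 made up much of this gap, at 51.5 to 56.2 FPKM with LPS and 11.2 to 13.4 FPKM in hyperoxia. Of the 7 tested in LPS against Hyp, 5 were called higher and 2 lower in LPS, beside 37.8% and 38% of all genes. Sftpb and Etv5 went the other way from the sum, at means of 0.472 and 4.94 FPKM in LPS and 1.55 and 7.45 FPKM in Hyp. The 15 macrophage markers summed to 138 to 195 FPKM with LPS and to 44.2 to 65.3 FPKM in hyperoxia, with Itgax, Mrc1, Arg1, Chil3 and Aif1 under 1 FPKM in every library. Of the 13 macrophage markers tested in LPS against Hyp, 11 were higher and 1 (Itgax) lower in LPS. Of all genes 37.8% were called higher and 38% lower. With M2-Exo in LPS 7 of 12 had an unadjusted p under 0.05, all of them lower, beside 11.1% of all genes. Of these 12, 0 were called by edgeR and 4 by DESeq2, which called 125 genes in all. Their part in the differences between the models given below was not tested, and the labels name no batch, so any difference in handling between the LPS and the Hyp libraries cannot be told apart from the model. In such bulk samples fewer cells expressing a gene and less RNA per cell cannot be told apart either.

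Promoters are shown for 2 ligands and both sheddases, since these differed in opposite directions between LPS and Hyp. Beyond these, windows were available only for Egfr and Erbb2. Each line gives the 250 bases before the RefSeq start in GRCm38.p6, 5′ to 3′ on the strand of the gene, and capitals mark every match on either strand to a GC box (GGGCGG), a CRE (TGACGTCA), a TATA box (TATAAA) or an AP-1 site (TGANTCA). The windows are chr5:91139349-91139598 (plus strand) for Areg, chr6:86194972-86195221 (plus) for Tgfa, chr9:70678732-70678981 (plus) for Adam10 and chr12:21373633-21373882 (minus) for Adam17.
Areg: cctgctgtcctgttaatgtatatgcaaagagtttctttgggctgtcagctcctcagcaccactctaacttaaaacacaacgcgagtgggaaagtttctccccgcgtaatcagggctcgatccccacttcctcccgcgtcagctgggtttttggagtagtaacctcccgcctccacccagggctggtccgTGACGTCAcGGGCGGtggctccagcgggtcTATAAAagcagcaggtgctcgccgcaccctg
Tgfa: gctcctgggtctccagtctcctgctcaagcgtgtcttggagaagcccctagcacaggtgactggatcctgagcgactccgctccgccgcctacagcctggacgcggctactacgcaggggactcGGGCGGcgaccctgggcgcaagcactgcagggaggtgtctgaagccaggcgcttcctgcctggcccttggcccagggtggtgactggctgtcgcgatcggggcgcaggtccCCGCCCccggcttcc
Adam10: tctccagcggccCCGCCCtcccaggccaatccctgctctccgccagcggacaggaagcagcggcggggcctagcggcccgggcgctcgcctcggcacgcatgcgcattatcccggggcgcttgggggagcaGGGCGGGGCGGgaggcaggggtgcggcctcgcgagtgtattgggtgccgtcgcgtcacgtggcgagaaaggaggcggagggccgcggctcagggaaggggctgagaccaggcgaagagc
Adam17: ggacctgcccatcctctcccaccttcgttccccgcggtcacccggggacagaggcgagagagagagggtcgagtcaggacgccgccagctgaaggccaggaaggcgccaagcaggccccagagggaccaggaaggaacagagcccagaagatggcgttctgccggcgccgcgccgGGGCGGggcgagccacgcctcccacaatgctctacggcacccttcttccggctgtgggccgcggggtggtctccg
The Areg window held a CRE that began 61 bases before the start, a GC box and a TATA box that began 31 bases before it. A CRE was present in 1.56% and a TATA box in 12.3% of the 32536 windows of this length. The Adam10 window held 3 GC boxes, of which a pair overlapped, the Tgfa window 2 and the Adam17 window 1, and a GC box was present in 33% of all windows. AP-1 letters were in none of these 4 windows and in 6.73% of all windows. Of the windows not shown, that of Erbb2 held none of the motifs and that of Egfr 1 GC box. For Adam10 and Tgfa the bases after the RefSeq start were not found in a GENCODE M21 transcript, so their positions rest on RefSeq alone. The Adam17 window also carries an exon of another gene, Gm49586, and none of the other windows shown contains an annotated exon.

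Per unit of length, the members fell into a different order in each model. In LPS the sheddase Adam10 led at 57.8 ± 14.7 FPKM (SD, n = 3), and Erbb2, Adam17 and Erbb3 followed at 17.5 ± 0.360, 13.6 ± 0.405 and 13.2 ± 0.0810 FPKM. The ligands stood below these receptors and sheddases, with Hbegf at 9.37 ± 0.131, Nrg1 at 7.89 ± 0.640, Tgfa at 3.30 ± 0.236, Ereg at 3.28 ± 0.162 and Areg at 1.95 ± 0.339 FPKM. In Hyp the ligands Nrg1 (36.6 ± 0.982 FPKM) and Hbegf (34.5 ± 2.13 FPKM) had the highest means, above Adam10 at 28.2 ± 7.42 FPKM. In Hyp replicate 1 Adam10, at 36.7 FPKM, was above both ligands. The place of Nrg1 rests on a gene model of 2103 counted bases that covers its annotated gene only in part. Egfr was last in every group.

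**Figure D1:**
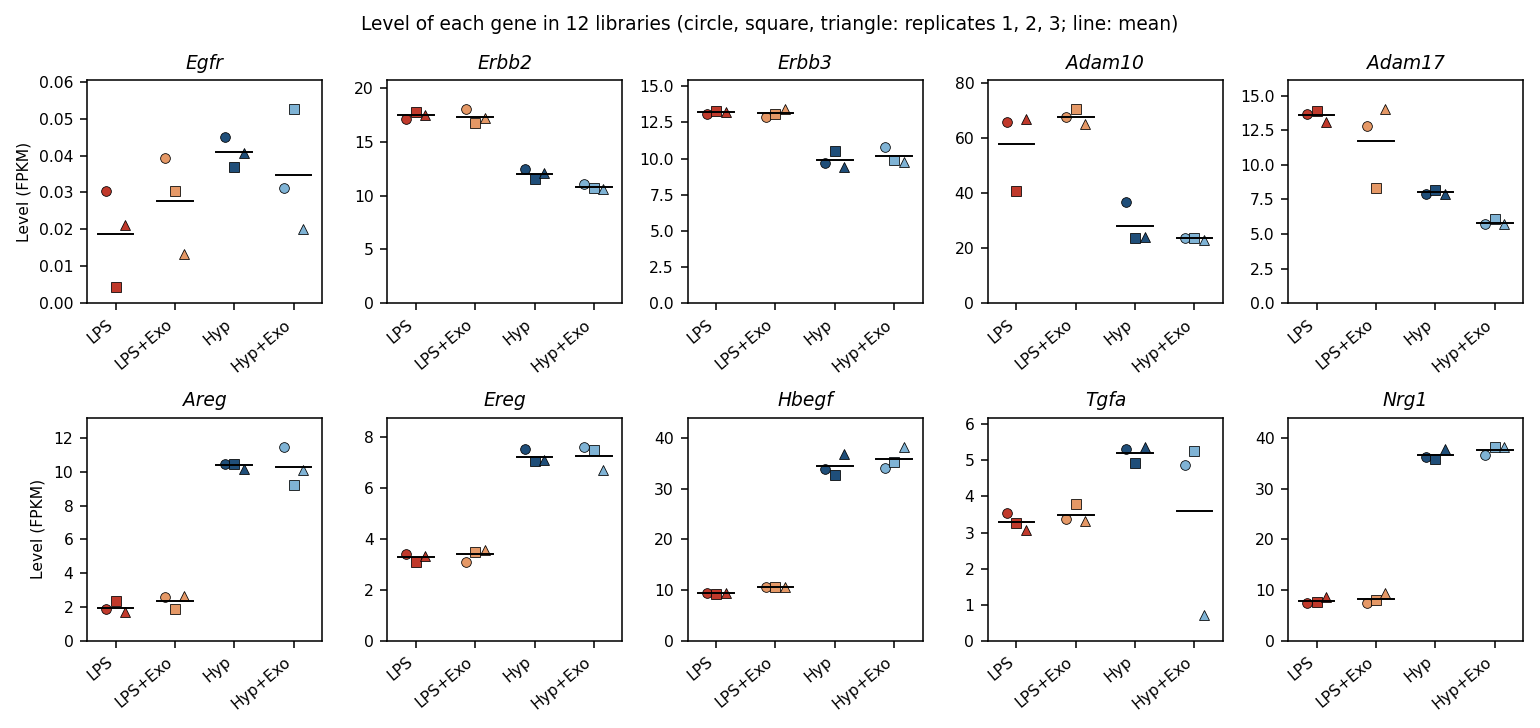
Level in FPKM (vertical axes, each from 0) of the 10 genes in the 12 libraries, with 3 libraries per group as symbols and the group mean as a line. Erbb2, Erbb3, Adam10 and Adam17 were higher in every library with LPS than in any in hyperoxia, with the narrowest gap in Adam17, at 8.33 FPKM in 1 LPS + M2-Exo library and 8.21 FPKM in the highest Hyp library. Areg, Ereg, Hbegf and Nrg1 were higher in every hyperoxia library.

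Among the receptors, Egfr, which binds all 4 EGFR ligands of the set, was close to undetected. Its counts were 7, 1 and 5 in LPS, 8, 6 and 3 in LPS + M2-Exo, 13, 10 and 12 in Hyp and 9, 14 and 5 in Hyp + M2-Exo. These correspond to 0.00427 to 0.0525 FPKM, and single libraries were at or under the 3 counts that a count of 0 allows. The gene (chr11:16752203-16918158, plus strand, GRCm38) passed the filter on low counts only in the comparison of Hyp + M2-Exo with Hyp, where the log2 fold change was -0.23 (SE 0.378). Erbb4, the other receptor for HB-EGF and neuregulins, had between 0 and 2 counts in every library.

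Erbb2, the co-receptor without a ligand (chr11:98412470-98437716, plus strand), was well expressed in all groups. It stood at 118, 124 and 123 CPM, a count scaled by library size alone, in LPS and at 124, 115 and 120 CPM in LPS + M2-Exo. In Hyp it stood at 82.5, 75.9 and 79.4 CPM and in Hyp + M2-Exo at 73.0, 69.9 and 69.3 CPM. All LPS libraries lay above all hyperoxia libraries, and within hyperoxia the M2-Exo libraries lay below those without M2-Exo. The log2 fold change of LPS over Hyp was 0.62 (SE 0.0425) without and 0.77 (SE 0.0476) with M2-Exo. With M2-Exo in hyperoxia the change was -0.16 (SE 0.0486), a level 10.6% lower that was not called, against -0.01 (SE 0.0407) in LPS. The difference between these changes, 0.15 (SE 0.0616), was not called either.

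Erbb3, the neuregulin receptor with a weak kinase domain (chr10:128567523-128589652, minus strand), was split by model and not by M2-Exo. It stood at 81.0, 82.2 and 82.9 CPM in LPS and at 78.9, 79.7 and 83.9 CPM in LPS + M2-Exo. In Hyp it stood at 56.8, 61.4 and 55.2 CPM and in Hyp + M2-Exo at 63.4, 57.8 and 57.2 CPM. The groups with and without M2-Exo overlapped in both models, while the models did not overlap. LPS exceeded Hyp by 0.51 (SE 0.05) on the log2 scale without M2-Exo and by 0.46 (SE 0.0570) with it.

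The ligands went the other way, and without M2-Exo the difference was largest in Areg. This gene encodes amphiregulin, a low-affinity EGFR ligand known from epithelial repair (chr5:91139599-91148432, plus strand). In LPS its level was 2.31, 2.91 and 2.12 CPM and in LPS + M2-Exo 3.19, 2.34 and 3.37 CPM. In Hyp it was 12.5, 12.5 and 12.0 CPM and in Hyp + M2-Exo 13.6, 10.9 and 11.9 CPM. Every hyperoxia library thus held several times the Areg of any LPS library, and M2-Exo libraries overlapped their controls in both models. The log2 fold change of LPS over Hyp was -2.32 (SE 0.122) without and -2.01 (SE 0.158) with M2-Exo. The M2-Exo change was 0.30 (SE 0.201) in LPS and -0.01 (SE 0.0959) in hyperoxia. Areg held 39 to 54 counts in LPS and 37 to 60 in LPS + M2-Exo, which limits the former.

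Nrg1 encodes neuregulin 1, the ligand of ERBB3. Its level was 16.1, 16.4 and 18.9 CPM in LPS and 16, 17.0 and 20.6 CPM in LPS + M2-Exo. In Hyp it was 74.3, 73.5 and 77.1 CPM and in Hyp + M2-Exo 75.2, 78.1 and 78.2 CPM. No library crossed between the models, and the M2-Exo groups overlapped their controls. LPS differed from Hyp by -2.12 (SE 0.0705) on the log2 scale without M2-Exo and by -2.10 (SE 0.0883) with it, and the M2-Exo changes were 0.08 (SE 0.109) in LPS and 0.04 (SE 0.0438) in hyperoxia. The gene model behind these counts spans chr8:31818028-31918203 (minus strand) with 2103 counted bases, whereas GENCODE M21 annotates the gene at 31814551 to 32884029, so transcripts that start further out are represented only in part.

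Hbegf encodes heparin-binding EGF-like growth factor, a ligand of EGFR and ERBB4. Its level was 23.1, 22.5 and 23.3 CPM in LPS and 25.3, 25.3 and 25.9 CPM in LPS + M2-Exo. In Hyp it was 78.4, 75.6 and 84.9 CPM and in Hyp + M2-Exo 79.1, 81.0 and 88.1 CPM. The 3 LPS + M2-Exo libraries lay just above the 3 LPS libraries, at a log2 fold change of 0.17 (SE 0.0569) that was not called, and in hyperoxia the groups overlapped at 0.06 (SE 0.0622). Between the models the log2 difference of LPS from Hyp was -1.79 (SE 0.0584) without and -1.68 (SE 0.0610) with M2-Exo.

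Ereg encodes epiregulin, a further EGFR and ERBB4 ligand, and lies next to Areg (chr5:91074622-91093646, plus strand). Its level was 14.4, 13.2 and 14.4 CPM in LPS and 13.1, 14.6 and 15.3 CPM in LPS + M2-Exo. In Hyp it was 30.2, 28.3 and 28.5 CPM and in Hyp + M2-Exo 30.7, 30.02 and 26.8 CPM. The models were apart and the M2-Exo groups overlapped, with log2 differences of LPS from Hyp of -1.05 (SE 0.0659) without and -1.01 (SE 0.0896) with M2-Exo. The M2-Exo changes were 0.05 (SE 0.0884) in LPS and 0.01 (SE 0.0694) in hyperoxia.

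Tgfa, which encodes TGF-alpha, a high-affinity EGFR ligand (chr6:86195223-86275719, plus strand), turned on a single library. Its level was 26.6, 24.5 and 23.4 CPM in LPS and 25.2, 28.1 and 25.1 CPM in LPS + M2-Exo. In Hyp it was 37.9, 35.0 and 38.1 CPM, and in Hyp + M2-Exo 34.6, 37.1 and only 4.99 CPM. Hyp + M2-Exo replicate 3 held 104 counts against 831 in each of the other replicates, a spread of 7.44 times within the group. Only 4.16% of the genes with a mean of at least 100 counts spread by 1.5 times or more in that group. LPS differed from Hyp by -0.57 (SE 0.0675) on the log2 scale without M2-Exo. With M2-Exo the difference was 0.04 (SE 0.557), and without that library it was -0.45 (SE 0.0844). Likewise the M2-Exo change in hyperoxia was -0.52 (SE 0.542) with all libraries and -0.04 (SE 0.0684) without replicate 3. In LPS the M2-Exo change was 0.09 (SE 0.0813).

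Summed per length, the 4 EGFR ligands Areg, Ereg, Hbegf and Tgfa reached 17.9 ± 0.402 FPKM (SD, n = 3) in LPS and 19.7 ± 0.273 FPKM in LPS + M2-Exo. The same sum was 57.3 ± 2.13 FPKM in Hyp and 57.0 ± 1.18 FPKM in Hyp + M2-Exo. Hbegf made up most of the sum in every library. With Nrg1 added, the totals ran from 25.5 to 29.5 FPKM in the LPS libraries and from 91.2 to 97.2 FPKM in the hyperoxia libraries.

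Adam17, the sheddase of these EGFR ligands and of TNF (chr12:21323509-21373632, minus strand), was the 1 member called with M2-Exo, in hyperoxia, where 0.101% of all genes were called. In Hyp it stood at 83.3, 86.3 and 83.0 CPM and in Hyp + M2-Exo at 60.0, 63.3 and 59.9 CPM. The groups were well apart, and the log2 fold change was -0.46 (SE 0.0456), a level 27.3% lower with M2-Exo. Leaving out any single library kept the change between -0.49 and -0.44, but the call was lost without Hyp replicate 1 or 2 and without Hyp + M2-Exo replicate 1 or 3. In a fit to all 12 libraries the change was -0.46 with an SE of 0.135 and was not called. Blocking on the replicate number left it at -0.46 (SE 0.0426), again without a call.

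In LPS the same gene stood at 152, 154 and 148 CPM, and in LPS + M2-Exo at 142, 91.3 and 157 CPM. Replicate 2 with M2-Exo lay far below the others and replicate 3 above every control, so the groups overlapped. The log2 fold change was -0.21 (SE 0.162) with all libraries and -0.02 (SE 0.0509) without LPS + M2-Exo replicate 2. The difference of the M2-Exo change between the models was 0.25 (SE 0.190) and not called; without that library it was 0.44 (SE 0.0650) and called. LPS exceeded Hyp in Adam17 by 0.85 (SE 0.0346) on the log2 scale without and by 1.10 (SE 0.166) with M2-Exo. Adam17 shares 97 bases with Iah1 on the opposite strand, and Iah1 held 2666 counts over all libraries together, and with strand use not stated, reads in that stretch cannot be told apart.

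Adam10, the sheddase of betacellulin, EGF and E-cadherin (chr9:70678997-70780229, plus strand), stood at 421, 262 and 434 CPM in LPS and at 431, 445 and 422 CPM in LPS + M2-Exo. In Hyp it stood at 223, 143 and 146 CPM and in Hyp + M2-Exo at 145, 144 and 139 CPM. A lone low library in LPS (replicate 2) and a lone high library in Hyp (replicate 1) set the spread, while both M2-Exo groups were tight. The M2-Exo change was 0.23 (SE 0.166) in LPS and 0.03 (SE 0.0437) without LPS replicate 2. In hyperoxia it was -0.26 (SE 0.156) and -0.02 (SE 0.0415) without Hyp replicate 1. LPS exceeded Hyp by 1.13 (SE 0.228) on the log2 scale without and by 1.61 (SE 0.0413) with M2-Exo, and the models did not overlap.

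Read against Adam10, Adam17 was the lower of the pair in every library, by 2.87 to 8.45 times in FPKM. The size of this gap depends on the counted lengths, 10803 bases for Adam17 and 6236 bases for Adam10. The log2 ratio of Adam17 to Adam10 in FPKM was -2.26, -1.56 and -2.35 in LPS and -2.40, -3.08 and -2.22 in LPS + M2-Exo. In Hyp it was -2.22, -1.52 and -1.61 and in Hyp + M2-Exo -2.07, -1.98 and -2.01. The Hyp + M2-Exo libraries lay inside the range of Hyp, and 1 of the LPS + M2-Exo libraries lay inside that of LPS with the others below it. The mean log2 ratio differed by -0.51 (SE 0.362) with M2-Exo in LPS, and by -0.26 (SE 0.265) when replicate 2 of either group was left out. In hyperoxia it differed by -0.24 (SE 0.220) with overlapping libraries. That overlap rested on Hyp replicate 1, since without it the groups were apart at -0.45 (SE 0.0501), whereas the difference was -0.11 (SE 0.304) without Hyp replicate 2 and -0.15 (SE 0.348) without Hyp replicate 3. LPS + M2-Exo lay below Hyp + M2-Exo in every library of the ratio, by -0.55 (SE 0.262) and by -0.29 (SE 0.0907) without LPS + M2-Exo replicate 2. LPS and Hyp overlapped at -0.27 (SE 0.332), a value that ran from -0.52 without LPS replicate 2, where the groups were apart, and -0.49 without Hyp replicate 1 to -0.17, -0.13 and -0.14 without LPS replicate 1, LPS replicate 3 and Hyp replicate 2.

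**Figure D2:**
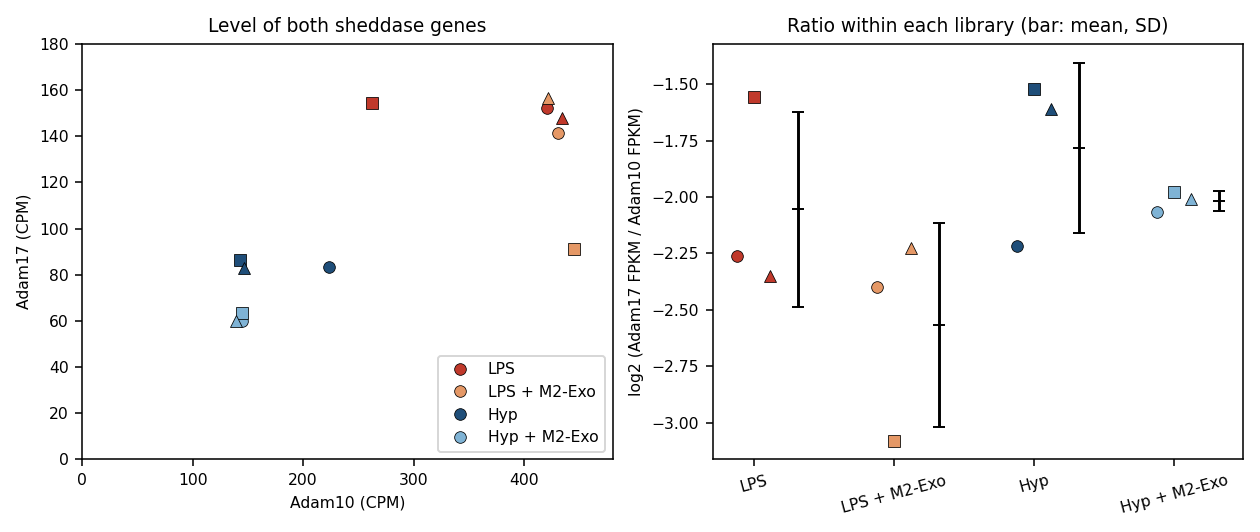
Left, Adam17 against Adam10 in CPM, 1 point per library; right, the log2 ratio of their FPKM per library with the group mean and SD (n = 3). The Hyp + M2-Exo libraries sit below the Hyp libraries in Adam17 at a similar Adam10, apart from Hyp replicate 1 with 223 CPM of Adam10.

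Across the 12 libraries, the genes outside the set whose log2 CPM followed Adam17 most closely were Scaf1 (Pearson r = 0.9703), Zdhhc8 (0.9692), Tbc1d17 (0.9676), Socs3 (0.9673) and Ankle1 (0.9655). Those closest to Adam10 were Spred2 (0.9766), Plekha6 (0.9766), Adamtsl1 (0.9761), Klhl13 (0.974) and Nrxn2 (0.9728). The values describe 10717 genes over libraries that share the split between LPS and hyperoxia, which alone gives many genes a high r.

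Over the whole set, 9 of 10 members were tested with M2-Exo in LPS and 0 were called at an adjusted p under 0.05, by edgeR and likewise by DESeq2, while 1 (Hbegf) had an unadjusted p under 0.05. The background was 0.187% of all genes called and 11.1% at an unadjusted p under 0.05. In hyperoxia 1 of 10 (Adam17) was called and 2 (Adam17 and Erbb2) had an unadjusted p under 0.05, beside 0.101% and 8.48% of all genes. For the difference of the M2-Exo change between models 0 of 9 were called by edgeR and by DESeq2, with 1 (Erbb2) at an unadjusted p under 0.05 and backgrounds of 0.0352% and 9.78%. In LPS against Hyp without M2-Exo 9 of 9 tested members were called, 4 higher and 5 lower in LPS, where 75.8% of all genes were called, 37.8% higher and 38% lower. With M2-Exo 8 of 9 were called, 4 in each direction, where 73.7% of all genes were called, 36.5% higher and 37.1% lower. Calls between the models were therefore the rule for all genes, and nothing is read from these counts. Members whose libraries did not overlap numbered 1 of 9 with M2-Exo in LPS (Hbegf), beside 16.6% of all genes, and 2 of 10 in hyperoxia (Erbb2 and Adam17), beside 15.6%. The comparisons share libraries, since each control group enters both an M2-Exo comparison and one between the models, so their values are only set side by side.

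**Figure D3:**
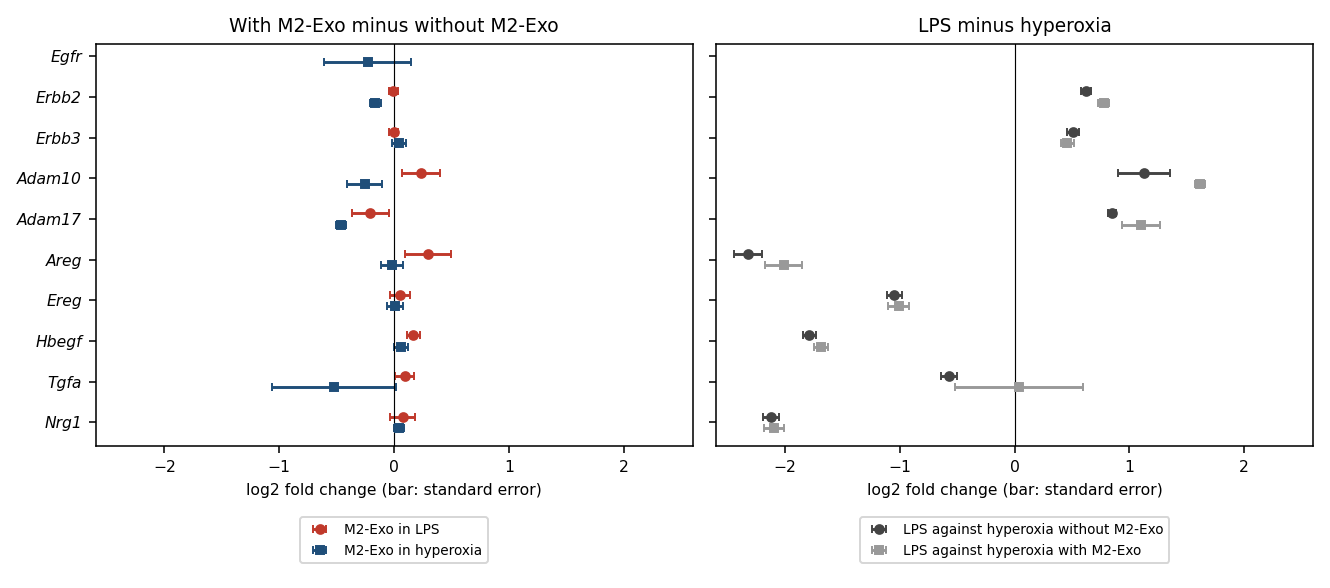
Log2 fold change (horizontal axis, bars are the SE) of each gene tested, with M2-Exo against without it in each model (left) and LPS against hyperoxia without and with M2-Exo (right). Changes with M2-Exo lie between -0.52 and 0.30, whereas those between the models reach from -2.32 to 1.61.

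The rest of the pathway was read from 7 lists holding 99 genes in all. With M2-Exo in LPS 0 of the 88 tested were called by edgeR and 1 by DESeq2, with 13 at an unadjusted p under 0.05, beside 11.1% of all genes. In hyperoxia 0 of 90 were called by either tool, with 10 at an unadjusted p under 0.05, beside 8.48% of all genes. Between LPS and Hyp without M2-Exo 46 were higher and 29 lower in LPS of 90 tested, and with M2-Exo 48 were higher and 27 lower of 89. The shares called, 83.3% and 84.3%, stand beside 75.8% and 73.7% of all genes, of which 37.8% and 36.5% were higher and 38% and 37.1% lower, and the counts of each list below are to be read against these.

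Most ERK target genes were, like the ligands of the set, lower in LPS, and a link between them was not tested. Of 12 tested without M2-Exo 2 were higher and 10 lower in LPS, with a median log2 fold change of -0.70 beside -0.01 over all genes. The 2 higher were Ccnd1, at a mean of 530.1 CPM in LPS and 259.7 CPM in Hyp, and Myc, at 72.52 and 50.85 CPM. Fosl1, which encodes the AP-1 subunit FRA-1, differed by -2.28 (SE 0.191), Plaur, the urokinase receptor, by -2.11 (SE 0.0936) and Egr1, an immediate early transcription factor, by -1.53 (SE 0.0548). With M2-Exo 2 were higher and 8 lower of 11, and Plaur differed by -2.01 (SE 0.0653). By edgeR's quasi-likelihood test with Benjamini-Hochberg adjustment Egr1 had an adjusted p of 1.44e-07 without and 8.08e-07 with M2-Exo.

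The inhibitors and feedback genes of the receptor were split, with 7 higher and 7 lower in LPS of 16 in both comparisons. Errfi1, whose product MIG6 blocks the EGFR kinase, was lower in LPS by -1.89 (SE 0.0446) on the log2 scale without M2-Exo. Dusp5, a nuclear ERK phosphatase, was lower by -2.62 (SE 0.141). Spry4, a Sprouty inhibitor of RAS-ERK signalling, held 2 to 9 counts in the LPS libraries against 171 to 182 in Hyp, a log2 fold change of -4.65 (SE 0.280). With M2-Exo these 3 genes differed by -1.95 (SE 0.0841), -2.59 (SE 0.169) and -4.09 (SE 0.243). Lrig1, Spry2 and Spry1, named after their values were seen, went the other way. Their means without M2-Exo were 350.5, 99.52 and 76.07 CPM in LPS and 110.3, 46.01 and 39.59 CPM in Hyp. The median of the list was -0.00 without and -0.09 with M2-Exo.

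Adaptors and relay genes of the RAS-ERK and PI3K branches were higher in LPS in 15 and lower in 4 of 25 without M2-Exo, and in 16 and 4 with it. The shares called, 76% and 80%, were near the 75.8% and 73.7% of all genes. Pik3r2, a regulatory subunit of PI3K, was higher by 1.34 (SE 0.0599), Mapk3, which encodes ERK1, by 1.14 (SE 0.0395) and Plcg1, phospholipase C gamma 1, by 1.04 (SE 0.0522) without M2-Exo. The median was 0.26 without and 0.28 with M2-Exo.

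**Figure D4:**
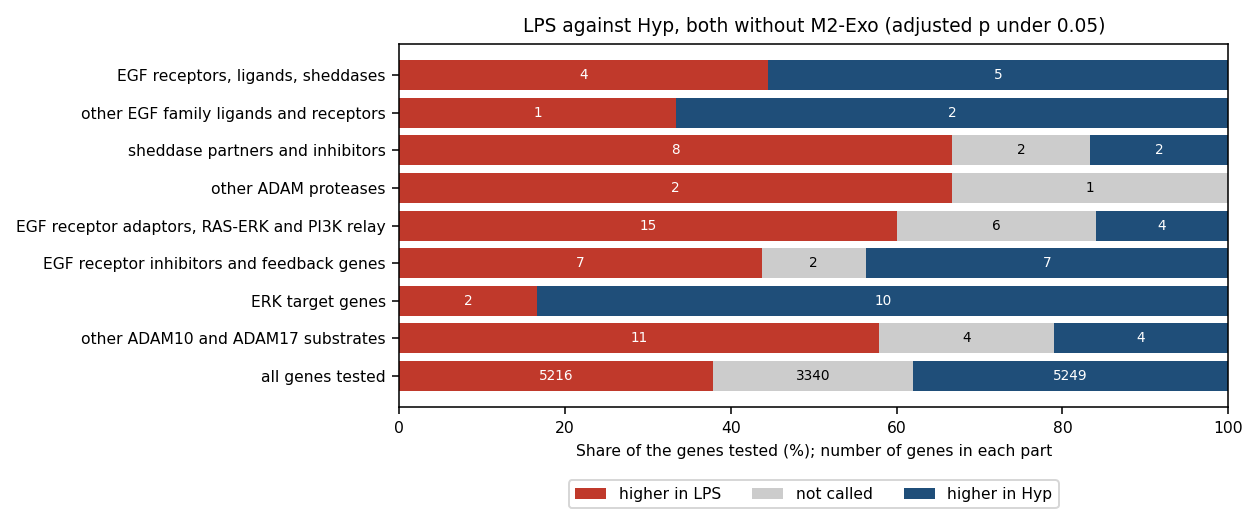
Share of the tested genes of each list that were called higher in LPS, not called or called higher in Hyp, both without M2-Exo, with the number of genes printed in each part and all genes tested in the lowest bar. Among ERK target genes 10 of 12 were higher in Hyp, whereas relay genes and sheddase partners were mostly higher in LPS.

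Partners and inhibitors of the sheddases were higher in LPS in 8 and lower in 2 of 12 in both comparisons. Tspan15, a tetraspanin that escorts ADAM10, was higher by 1.11 (SE 0.0458) and Timp2, a metalloprotease inhibitor, by 1.09 (SE 0.0375), while Tspan33, another tetraspanin partner of ADAM10, was lower by -1.17 (SE 0.103) on the log2 scale without M2-Exo. Rhbdf1 and Rhbdf2, which encode the iRhoms that carry ADAM17 to the cell surface, and Timp3, its inhibitor, were named after their values were seen. They were higher in LPS by 0.69 (SE 0.0678), 0.79 (SE 0.0474) and 0.15 (SE 0.0407). Of the other ADAM proteases 2 of 3 tested were higher in LPS without M2-Exo (Adam8 by 1.22, SE 0.0882, and Adam15 by 0.68, SE 0.0510) and 3 of 3 with it, where Adam9 was higher by 0.14 (SE 0.0441).

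Of the other EGF family genes 3 of 7 were tested. Egf and Nrg2, as with most ligands above, were lower in LPS, by -1.83 (SE 0.0973) and -1.78 (SE 0.229) on the log2 scale without M2-Exo. Btc, which encodes betacellulin, was higher in LPS by 1.20 (SE 0.0957), opposite to the 5 ligands of the set. With M2-Exo the 3 differences were -1.62 (SE 0.106), -2.22 (SE 0.320) and 0.84 (SE 0.115).

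Other substrates of ADAM10 and ADAM17 were higher in LPS in 11 and lower in 4 of 19 in both comparisons, with medians of 0.50 without and 0.55 with M2-Exo. The share called, 78.9%, was near the 75.8% and 73.7% of all genes. Cx3cl1, the shed chemokine fractalkine, was higher by 3.45 (SE 0.0776), Tnf by 3.11 (SE 0.146) and Cdh1, which encodes E-cadherin, by 2.25 (SE 0.0954) on the log2 scale without M2-Exo. With M2-Exo Cx3cl1 was higher by 3.36 (SE 0.102) and Tnf by 3.25 (SE 0.211), and the adhesion gene L1cam was lower by -2.53 (SE 0.278). Cx3cl1 had an adjusted p of 2.74e-08 without and 1.05e-07 with M2-Exo by edgeR's quasi-likelihood test with Benjamini-Hochberg adjustment.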

How the data were processed

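The authors deposited raw read counts per gene and FPKM for each library. According to the submitters' processing notes, reads were handled with Seqtk, HISAT2 2.0.4, StringTie 1.3.0 and edgeR on GRCm38. The annotation, the counting program and strand use are not given in the sources used here. Counts were tested in R 4.3.3 with edgeR 4.0.16 (filterByExpr, TMM scaling, quasi-likelihood F test on the 6 libraries of a comparison, or on 12 for the difference between models). A gene was called at a Benjamini-Hochberg adjusted p under 0.05 over all genes tested. The SE of a log2 fold change was its absolute value divided by the square root of F. This F draws in part on the spread of other genes. The SE of a ratio difference was the root of both group variances, each divided by its number of libraries and then summed. The SEs of fold changes and of ratio differences are therefore not directly comparable. TMM factors lay between 0.9603 and 1.036, and the script was tested on simulated data. CPM used TMM over 12 libraries and serve within a gene, and the deposited FPKM serve between genes.

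The members, the pathway lists and the marker lists were chosen with earlier results of these data known. All members are named, with up to 3 called genes per list, those of largest change among genes with a group mean of at least 50 counts, and the 5 genes most like Adam17 and Adam10 by r among genes with a mean of at least 5 CPM. Promoters are from RefSeq. Alternatives were DESeq2 1.42.0, other scalings and filters, a fit to all libraries, the study's thresholds, a replicate block and leaving out each library. Pairs of replicates differed beyond sampling noise, with a chi-square per degree of freedom of 7.01 to 11.6.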

Additional observations from a re-analysis of the deposited data

How the results depend on the processing

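No member's called difference changed sign under any alternative. The call of Adam17 with M2-Exo in hyperoxia depended on the setting, as 0 members were called with all 12 libraries in 1 fit, with the replicate block and past the study's thresholds (unadjusted p under 0.05 and a log2 fold change of at least 2), and 0 to 1 when a library was left out, while its log2 fold change with the block, -0.46, was that without it. Between LPS and Hyp the study's thresholds left 2 members in each comparison, and leaving out a library gave 9 to 10 members without M2-Exo (Egfr passed the filter without LPS replicate 1) and 8 to 9 with it. For the difference between models it gave 0 to 1, the 1 being Adam17 without LPS + M2-Exo replicate 2. Over all genes, the 25 called with M2-Exo in LPS became 125 with DESeq2, 12 with all 12 libraries, 6 with the replicate block, 3 past the study's thresholds and 21 to 39 with a library left out (39 without LPS replicate 1). The 14 in hyperoxia became 37, 2, 8, 6 and 12 to 21 in that order. The study's thresholds left 1060 genes in LPS against Hyp without M2-Exo and 983 with it, and leaving out a library gave 10046 to 10301 and 9603 to 9913. The 5 genes of the difference between models became 13 without a filter on low counts, 67 with DESeq2, 3 with the replicate block and 4 to 34 with a library left out (34 without Hyp + M2-Exo replicate 1). Samples with the same number shared little, with correlations of their deviations from -0.0417 to 0.12, so the numbers are taken as names, although in hyperoxia and between LPS and Hyp without M2-Exo each sample correlated best with its own number, and the block changed no other member's call. The mean log2 ratio of Adam17 to Adam10 ranged from -2.304 to -1.909 in LPS, -2.739 to -2.311 in LPS + M2-Exo, -1.913 to -1.566 in Hyp and -2.038 to -1.995 in Hyp + M2-Exo as single libraries were left out, and the same was done for differences of this ratio between groups after the data were seen. Scaling by library size alone moved the median of all genes between LPS and Hyp to -0.0987, and every called member kept its direction. The cause of these changes was not tested. Depth limits Egfr most, and Areg in LPS.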

Other observations

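Summed levels of the other marker lists also differed between the models. The 6 alveolar type I markers summed to 97.7 to 112 FPKM in the libraries with LPS and to 55.9 to 76.8 FPKM in those in hyperoxia. Of these 6, 4 were called higher and 0 lower in LPS without M2-Exo, beside 37.8% and 38% of all genes. With M2-Exo 5 were called higher and 0 lower, beside 36.5% and 37.1%. Aqp5 went the other way without a call, at means of 27.8 and 28.1 FPKM in LPS and LPS + M2-Exo. In Hyp and Hyp + M2-Exo its means were 33.0 and 36.8 FPKM. The 7 fibroblast markers summed to 345 to 375 FPKM with LPS and to 159 to 173 FPKM in hyperoxia, although Col1a2, Col3a1, Pdgfrb and Lum were under 1 FPKM in every library and Dcn alone accounted for 341 to 371 and 158 to 171 FPKM of these sums. The 6 epithelial markers summed to 290 to 320 FPKM with LPS and 372 to 425 FPKM in hyperoxia, and the direction of this sum was set by Krt19, at 200 to 237 and 295 to 342 FPKM. Of the 4 epithelial markers tested without M2-Exo, Cdh1, Epcam and Krt8 were called higher in LPS and Krt19 lower, with a median log2 fold change of 0.49. With M2-Exo 1 (Cdh1) was called higher and 1 (Krt19) lower. The 5 endothelial markers summed to at most 3.44 FPKM in any library.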
